A study of Bos taurus with 6 samples.

Results

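Antigen processing and presentation genes are the genes by which a cell cuts proteins into peptides, loads the peptides on MHC molecules and shows them at its surface to T cells. The members described here were the rows of the deposited expression table whose KEGG annotation held the pathway of that name, leaving out the proteasome activator genes, whose names start with PSM. There were 42 such genes among the 17663 of the table. They were split by role into 9 class I members, 3 members of peptide loading, 6 class II members, 10 chaperones, 6 lysosomal proteases and reductases, 7 transcription factors and 1 immune cell molecule.

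The cells were bovine fetal fibroblasts (bEFs), the cells that build connective tissue, in primary culture from cattle fetuses of 50 to 60 days. FT cells were taken from 3 fetuses transgenic for fat-1, a desaturase gene whose product turns n-6 fatty acids into n-3 fatty acids, and WT cells from 3 wild-type fetuses of Luxi cattle. The breed of the FT fetuses is not given in the sources used here. Each fetus gave 1 library of poly(A) RNA. The comparison of FT with WT cells asks how the transcriptome differs with the transgene, and since each genotype was carried by its own fetuses, the transgene and the other inherited differences of the fetuses cannot be told apart.

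On the class I route, peptides made by the proteasome in the cytosol are carried into the endoplasmic reticulum by the transporter of TAP1 and TAP2, trimmed there by aminopeptidases, and loaded on a heavy chain paired with beta-2-microglobulin, with the help of tapasin, calreticulin and PDIA3. Class II molecules instead take up peptides that cathepsins have cut in endosomes and lysosomes, and are made mainly by professional antigen-presenting cells. Most nucleated cells, fibroblasts included, show class I at their surface, and class I heavy chain genes are highly polymorphic and lie as close copies in the MHC.

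Libraries FT_1, FT_2 and FT_3 held 63366834, 48167642 and 54204446 counts, and WT_1, WT_2 and WT_3 held 69777641, 51310741 and 54271927. Among the FT libraries, FT_1 stood apart. FT_1 differed from FT_2 by a biological coefficient of variation (spread between libraries with counting noise taken off) of 46.9%, and from FT_3 by 47.3%. It was 8.11% between FT_2 and FT_3, and 9.76% to 12.9% between WT libraries. Calls of members that change without FT_1 are therefore given with and without it.

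All 10 fibroblast markers were in the table. Their summed FPKM (fragments scaled by gene length and library total) was 7494, 18913 and 18708 in FT_1, FT_2 and FT_3, and 18437 to 19117 in WT libraries. Its parts differed more than the sum. Of the 10, 1 was called by edgeR with 6 libraries, PDGFRA, which was higher in FT cells (log2 fold change 1.06, edgeR adjusted p = 0.00530). Without FT_1, LUM, PDGFRB, COL6A1 and COL1A1 were also called higher, with log2 fold changes of 1.37, 1.06, 0.72 and 0.39. Their edgeR adjusted p was then at most 3.26e-04, and with 6 libraries it was at least 0.244. VIM was the most abundant in each WT library and stood at 1243.94, 3850.19 and 4170.95 in FT_1, FT_2 and FT_3 against 7311.82 to 8177.52 in WT cells (edgeR adjusted p = 0.0902, and 1.06e-05 without FT_1), whereas DCN had the highest mean in FT cells, 3221 against 2193 in WT cells (edgeR adjusted p = 0.129, and 1.61e-06 without FT_1). Markers of other cell types also moved with the groups. Of 17 leukocyte markers, 12 were in the table, with a summed FPKM of 4.66, 9.41 and 8.75 in FT_1, FT_2 and FT_3 and of 25.5, 24.1 and 24.2 in WT_1, WT_2 and WT_3. LAPTM5 was the most abundant of them except in FT_1, where CD14 was, and the T and B cell genes CD3D, CD3E and MS4A1 had at most 4 counts in any library. So the summed leukocyte list was lower in each FT library. With 6 libraries 2 of its genes, CD163 and CORO1A, were called lower (adjusted p of up to 0.0639 and 0.0906 over the alternatives). LAPTM5 (edgeR adjusted p = 0.0928) and CD14 missed the threshold with 6 libraries. Both were called lower without FT_1 (log2 fold changes -1.20 and -0.67, edgeR adjusted p = 2.98e-06 and 0.0115). limma called both lower as well (adjusted p = 0.0300 and 0.0437). Their adjusted p was up to 0.195 and 0.256 over the alternatives.

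The 5 smooth muscle markers summed to an FPKM of 2483, 3754 and 3616 in FT cells against 1095, 1076 and 1201 in WT cells, with ACTA2 the most abundant by the mean of each group and 4 of 5 called higher. MYH11 missed the threshold with 6 libraries (edgeR adjusted p = 0.0665) and was higher without FT_1 (3.44e-07). The 3 mesothelial markers in the table, of 5 listed, summed to 199.7, 45.0 and 46.3 in FT_1, FT_2 and FT_3 against 2.32 to 3.48 in WT cells, nearly all of it from MSLN, which was called higher, while the gene WT1 had no count in FT cells. The 6 epithelial markers summed to 142 in FT_1 and to between 7.92 and 14.2 in the other 5 libraries. KRT8 was the most abundant in FT_1 with 84.14, and CDH1 in the other libraries with 7.11 to 13.86. EPCAM had no count outside FT_1, and KRT8 and KRT18 had counts in each FT library and none in WT libraries. KRT8 and KRT18 missed the threshold with 6 libraries (edgeR adjusted p = 0.0696 and 0.0597). They passed it as higher without FT_1 (3.67e-05 and 0.00109) and with the replicate block (0.0140 and 0.0233). CLDN4 was called higher, with 3.39 to 3.82 in FT cells and 0.09 to 0.33 in WT cells (edgeR adjusted p = 0.00184). The 2 skeletal muscle markers in the table, of 5 listed, were DES and MYF5. DES was called higher, with 3.17 to 5.74 in FT cells and at most 0.07 in WT cells (edgeR adjusted p = 0.00488). MYF5 had 0.03 to 0.61 in FT cells and 1.06 to 1.93 in WT cells and was not called with 6 libraries (edgeR adjusted p = 0.212). It was called lower in limma (adjusted p = 0.0376) and without FT_1 (log2 fold change -1.09, edgeR adjusted p = 0.0129). The 8 of 9 endothelial markers in the table summed to at most 1.56. Among them PECAM1 was not called with 6 libraries (edgeR adjusted p = 0.108) and was lower without FT_1 (4.51e-04). The part of these cell types in the results that follow was not tested, and in bulk RNA fewer cells of a type and less RNA per cell cannot be told apart.

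In FT cells 6 of the 8 class I heavy chain rows were called higher, as were TAP1, the tapasin gene TAPBP and the heat shock gene HSPA1A. The chaperone genes HSP90AA1 and HSPA4, the calreticulin gene CALR, the class II chaperone gene BOLA-DMB and the protease gene LGMN were called lower. In the heavy chain rows, RNA level and inherited alleles cannot be told apart. Genes were called at a Benjamini-Hochberg adjusted p under 0.05 over all genes tested by edgeR's quasi-likelihood test on the counts. Of the 37 members with enough counts to be tested, 9 were higher in FT cells (24.3%) and 5 were lower (13.5%). Over all 13482 genes tested, 20.1% were higher and 18.9% were lower, so the members as a whole were called about as often as other genes. The median log2 fold change (log2FC, FT minus WT) was 0.02 over the members and 0.03 over all genes tested.

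By class, the calls can be set beside the 20.1% higher and 18.9% lower of all genes, but no class was tested against other genes. Of the 9 class I members, several of which are close copies, 6 (66.7%) were called higher and 0 lower in edgeR (0 lower also at an unadjusted p under 0.05, in limma and in DESeq2), with a median log2FC of 0.95. Of the 3 peptide loading members 2 were higher. Of the 10 chaperones 1 was higher (10.0%) and 3 were lower (30.0%), with a median of -0.25. Of the 2 class II members tested, 1 was lower. Every tested member had a count of at least 96 in each library, so none passed the filter through 1 group alone.

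Without FT_1, 14 members were called higher (37.8%) and 13 lower (35.1%), while 30.6% of all 13765 genes tested were higher and 31.5% lower. All 14 members called with 6 libraries were called in the same direction without it. By class, 7 class I members were then higher and 1 lower, 2 chaperones were higher and 6 lower, and both class II members tested were lower. limma on log2(FPKM + 1) called 9 members higher and 10 lower, where 15.0% and 29.2% of 12247 genes were called. DESeq2 called 11 members higher and 10 lower, where 18.3% and 16.8% of all genes were called. The median log2FC of all genes was -0.12 in limma. It was also -0.12 in edgeR with library totals alone in place of TMM, where 9 members (24.3%) were called higher and 9 lower, against 15.2% and 25.2% of all genes. In FPKM, 9 members had all FT libraries above all WT libraries and 12 had all FT libraries below them, against 21.8% and 36.9% of all genes tested.

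**Figure D1:**
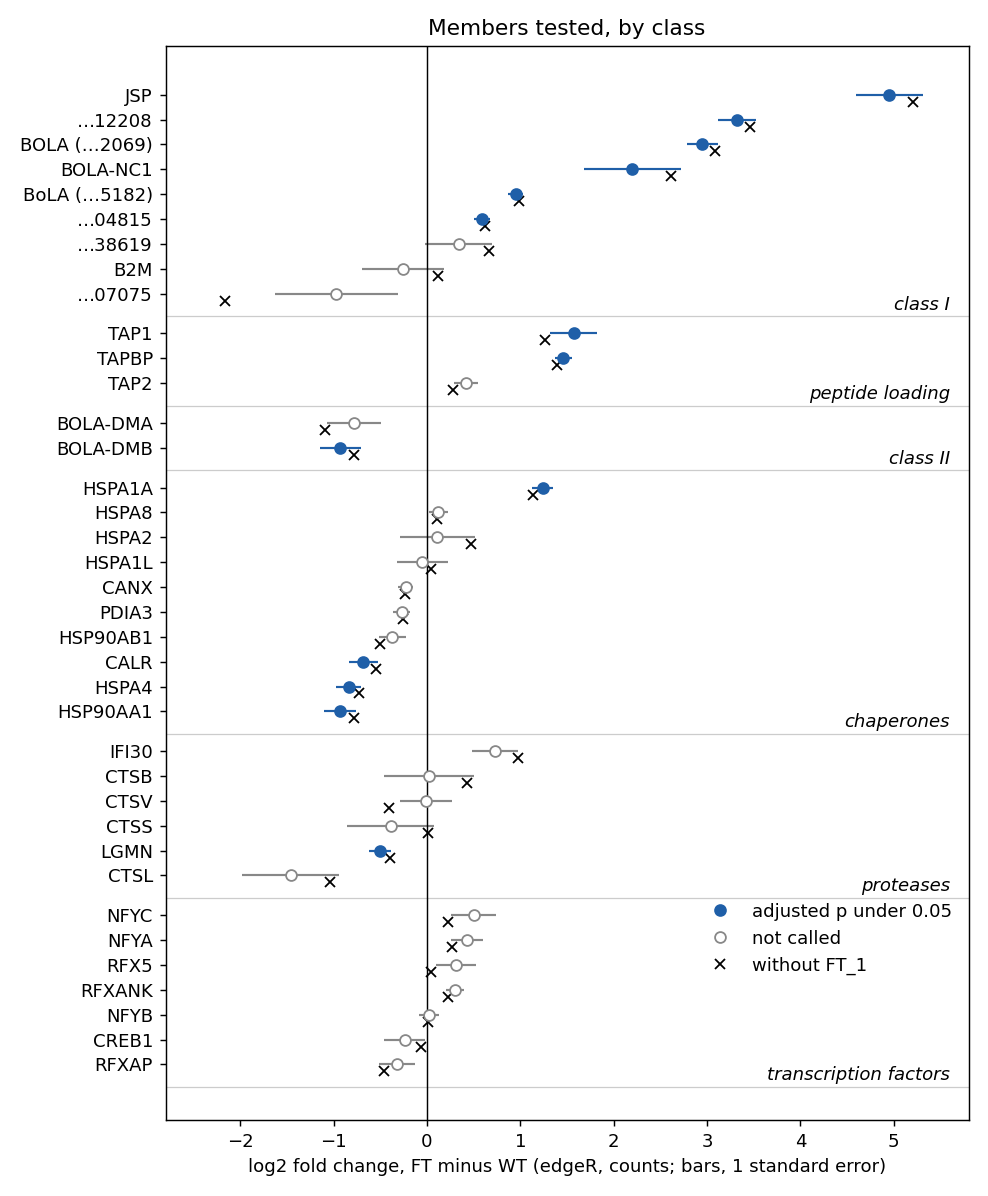
Log2 fold change (FT minus WT, edgeR on counts) of the 37 members tested, by class, with bars of 1 standard error. Filled points had an adjusted p under 0.05, open points did not, and crosses give the value without FT_1; rows without a symbol are named by the last digits of their identifier, and the class I rows reach from -0.97 to 4.95.

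The rises fell mostly on chromosome 23, which carries the bovine MHC. Of the 16 tested members on this chromosome, 8 were higher and 1 was lower in FT cells. Of the 21 tested members elsewhere, 1 was higher and 4 were lower. Among all 411 tested genes of chromosome 23, 25.1% were higher and 16.1% were lower.

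Class I heavy chains carry the peptide and are read by T cell receptors. The table held 8 rows that KEGG orthology placed as class I heavy chains, 7 of them on chromosome 23. Class I heavy chain genes of the MHC are close copies of one another, but the likeness of these 8 rows was not measured. How reads that match several copies were counted is not given in the sources used here. The level of a single row is therefore uncertain, and since the groups came from different fetuses, RNA level and inherited class I alleles cannot be told apart in these rows.

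JSP (ENSBTAG00000020116, chromosome 23, 28663713 to 28667379 in the authors' table) had an FPKM of 21.90, 44.74 and 38.05 in FT_1, FT_2 and FT_3, and of 0.95, 1.33 and 1.51 in WT_1, WT_2 and WT_3. Every FT library was far above every WT library, and the mean was 27.6-fold higher in FT cells. JSP had the largest log2FC of the members, 4.95 (standard error 0.36, edgeR adjusted p = 7.50e-04), and 5.21 without FT_1. In counts, the JSP row had 106 to 130 in WT libraries and 2216 to 3434 in FT libraries, so its low WT level was not a count of 0. Whether the WT counts came from JSP or from reads of other heavy chain rows cannot be told.

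ENSBTAG00000012208 (chromosome 23, 27871206 to 27875056) had an FPKM of 14.73, 20.23 and 19.48 in FT_1, FT_2 and FT_3, and of 1.87, 1.77 and 2.44 in WT_1, WT_2 and WT_3. The groups were again wide apart, with a log2FC of 3.32 (standard error 0.20, edgeR adjusted p = 5.28e-04). It lies within the span of MIC1, a class I related gene on the opposite strand that was also higher in FT cells (log2FC 2.66, edgeR adjusted p = 0.00411), and whether the counting used strand is not given, so the reads of both cannot be told apart.

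The row named BOLA (ENSBTAG00000002069, chromosome 23, 28720501 to 28724399) had an FPKM of 63.43, 94.08 and 76.15 in FT_1, FT_2 and FT_3, and of 10.93, 11.59 and 11.19 in WT_1, WT_2 and WT_3. It was the most abundant heavy chain row in each FT library, and its log2FC was 2.95 (standard error 0.17, edgeR adjusted p = 5.23e-04). The row named BoLA (ENSBTAG00000005182, chromosome 23, 27829737 to 27835051) was the most abundant in each WT library, with 34.71, 32.18 and 33.68 in WT_1, WT_2 and WT_3. It reached 55.56, 56.95 and 61.73 in FT_1, FT_2 and FT_3, a smaller rise of 0.95 on the log2 scale (standard error 0.08, edgeR adjusted p = 0.00104). Thus the order of the heavy chain rows differed between the groups.

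BOLA-NC1, a non-classical class I gene, had an FPKM of 4.89, 17.92 and 18.49 in FT_1, FT_2 and FT_3 against 2.83, 3.69 and 3.55 in WT_1, WT_2 and WT_3. FT_1 lay just above the WT libraries and the other FT libraries well above them. The log2FC was 2.20 (standard error 0.52, edgeR adjusted p = 0.0191), and 2.61 (standard error 0.12) without FT_1. Leaving out any of the other 5 libraries ended the call, with an adjusted p of up to 0.0810. ENSBTAG00000004815, the heavy chain row on chromosome 7 (40400620 to 40439818), had 20.75, 22.05 and 21.09 in FT cells and 14.48, 15.82 and 17.23 in WT cells. Its groups did not overlap and its rise was the smallest of the 6 (log2FC 0.59, standard error 0.09, edgeR adjusted p = 0.00544).

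For the other 2 heavy chain rows the FT libraries disagreed. ENSBTAG00000007075 (chromosome 23, 27943564 to 28059869) had an FPKM of 12.24, 2.19 and 2.70 in FT_1, FT_2 and FT_3, and of 12.66, 11.11 and 13.34 in WT_1, WT_2 and WT_3. FT_1 was at the level of the WT libraries and the other FT libraries were far below it, so the log2FC of -0.97 was not called (standard error 0.66, edgeR adjusted p = 0.285) and became -2.16 without FT_1 (adjusted p = 6.54e-07, and up to 0.512 over the alternatives). The row spans 4 other rows of the table on both strands and overlaps 1 more at its start, so its reads are uncertain. ENSBTAG00000038619 (chromosome 23, 28493346 to 28505219) had 9.00, 21.90 and 21.27 in FT_1, FT_2 and FT_3 against 15.03, 12.96 and 18.12 in WT cells. FT_1 was below and the other FT libraries above the WT libraries, with a log2FC of 0.34 (edgeR adjusted p = 0.482), and 0.66 without FT_1 (adjusted p = 0.00126, and up to 0.877 over the alternatives).

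**Figure D2:**
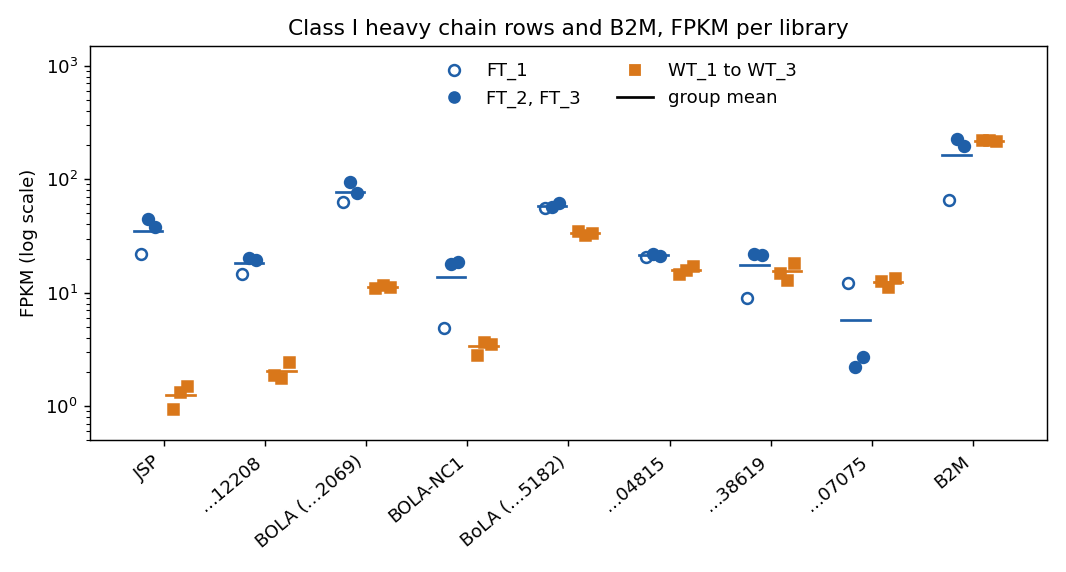
FPKM of the 8 class I heavy chain rows and of B2M in each library, on a log axis, with lines at the group means. Rows without a symbol are named by the last digits of their identifier; in the first 6 rows every FT library lies above every WT library, and FT_1 (open circles) departs from FT_2 and FT_3 most in BOLA-NC1, ENSBTAG00000007075 and B2M.

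Since reads may be shared between these rows, their sum is less dependent on how the copies were told apart. The sum may still carry reads shared with other overlapping rows, such as MIC1, and allele differences between the fetuses. The 8 rows together held a CPM (counts scaled to the same library total) of 384, 507 and 473 in FT_1, FT_2 and FT_3, and 197, 188 and 213 in WT_1, WT_2 and WT_3. The sum was thus higher in each FT library, with 455 ± 63.5 for FT against 199 ± 12.9 for WT (mean ± SD, n = 3 each), or 2.28-fold, and 2.46-fold without FT_1. Leaving out JSP it was 2.02-fold. No p was computed for the sum, and with 3 libraries a group the smallest two-sided p of an exact permutation test is 0.10. BOLA, ENSBTAG00000012208 and JSP made up 45.5%, 54.2% and 49.1% of the heavy chain counts in FT_1, FT_2 and FT_3, against 12.2%, 13.6% and 12.5% in WT_1, WT_2 and WT_3. These 3 rows were grouped after their values were seen.

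**Figure D3:**
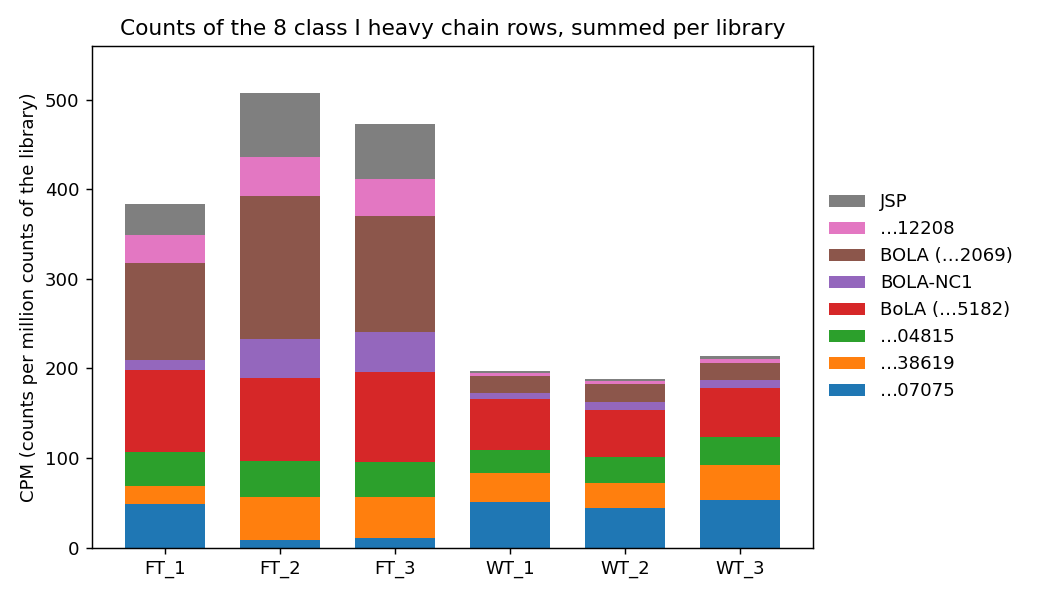
CPM of the 8 class I heavy chain rows, stacked for each of the 6 libraries. The stacks reach 384 to 507 in FT cells and 188 to 213 in WT cells, and the parts of BOLA, JSP, BoLA and ENSBTAG00000012208 widen most in FT cells.

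B2M (chromosome 10, 103116503 to 103123174) encodes beta-2-microglobulin, the light chain shared by class I molecules. Its FPKM was 65.55, 226.31 and 197.92 in FT_1, FT_2 and FT_3, and 220.02, 220.31 and 217.83 in WT_1, WT_2 and WT_3. B2M was low in FT_1 alone, and the other FT libraries were near the WT libraries. The log2FC was -0.26 (standard error 0.44, edgeR adjusted p = 0.669) and 0.12 (standard error 0.07) without FT_1. The summed FPKM of the heavy chain rows divided by that of B2M was 3.09, 1.24 and 1.31 in FT_1, FT_2 and FT_3 and 0.425, 0.411 and 0.464 in WT_1, WT_2 and WT_3. So the heavy chains rose relative to B2M in each FT library, although the FPKM of a sum over copies carries the uncertainty given above.

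TAP1 (chromosome 23, 7177583 to 7186556) encodes one chain of the peptide transporter. Its FPKM was 6.51, 3.87 and 3.53 in FT_1, FT_2 and FT_3, against 1.77, 1.64 and 1.78 in WT_1, WT_2 and WT_3. All FT libraries were higher, FT_1 most, and the log2FC was 1.57 (standard error 0.25, edgeR adjusted p = 0.00507) and 1.26 without FT_1. TAP2, the other chain, had 12.98, 10.06 and 9.32 in FT cells and 8.51, 8.71 and 9.70 in WT cells. Here the groups overlapped, and the log2FC of 0.42 missed the threshold (standard error 0.13, edgeR adjusted p = 0.0507), which it passed in DESeq2, without FT_3 and without FT_1 (0.28, adjusted p = 0.0150), with an adjusted p of up to 0.264 over the alternatives. TAPBP (chromosome 23, 7473580 to 7484202), which encodes tapasin, the bridge between the transporter and class I, had an FPKM of 123.81, 105.89 and 102.90 in FT cells and of 45.48, 46.34 and 42.91 in WT cells. Its log2FC was 1.46 (standard error 0.09, edgeR adjusted p = 5.78e-04), and by FPKM it was the most abundant of the loading genes in each library.

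Related genes that were not members were taken from a list of 40 symbols chosen by function, of which 36 were in the table and 35 were tested. Of these, 9 were higher (25.7%) and 9 lower (25.7%), against 20.1% and 18.9% of all genes. limma called 6 higher (17.6%) and 13 lower (38.2%), against 15.0% and 29.2%, and edgeR with library totals 7 higher and 12 lower. PSMB8, a catalytic subunit of the immunoproteasome, lies between TAP2 and TAP1 on chromosome 23. Its FPKM was 24.95, 21.07 and 18.61 in FT cells and 7.30, 8.17 and 7.66 in WT cells, a rise of 1.64 on the log2 scale (standard error 0.13, edgeR adjusted p = 8.52e-04). Its partner PSMB9, on the opposite strand 257 bases upstream of TAP1, had 4.13, 1.59 and 1.70 in FT_1, FT_2 and FT_3 against 1.27, 1.94 and 1.28 in WT cells. PSMB9 was high in FT_1 alone (log2FC 0.88, edgeR adjusted p = 0.180, and 0.32 without FT_1). The third subunit, PSMB10, had 14.43, 7.03 and 6.83 in FT_1, FT_2 and FT_3 against 5.55 to 6.80 in WT cells, and was not called either (log2FC 0.72, edgeR adjusted p = 0.121, and 0.29 without FT_1). The 3 subunits thus did not move alike.

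NLRC5, the transactivator of class I genes, had a low FPKM of 0.68, 0.88 and 0.61 in FT cells and of 0.21, 0.23 and 0.27 in WT cells, from 199 to 261 and 73 to 89 counts. The groups were apart and the log2FC was 1.75 (standard error 0.25, edgeR adjusted p = 0.00363). ERAP2, an aminopeptidase that trims peptides in the endoplasmic reticulum, had 10.80, 7.44 and 5.91 in FT cells and 2.99, 3.11 and 3.20 in WT cells (log2FC 1.53, standard error 0.21, edgeR adjusted p = 0.00349). ERAP1, which also trims there, had 15.62, 13.96 and 15.11 in FT cells and 14.10, 14.04 and 15.09 in WT cells. Its groups overlapped and it was not called (log2FC 0.21, standard error 0.08, edgeR adjusted p = 0.0785). The interferon regulatory factor gene IRF2 was higher by 0.92 on the log2 scale (standard error 0.08, edgeR adjusted p = 9.17e-04). The interferon gamma receptor gene IFNGR2 was lower, with a log2FC of -0.54 (standard error 0.07, edgeR adjusted p = 0.00304), as was the kinase gene JAK2 with -0.69 (standard error 0.10, edgeR adjusted p = 0.00414). IRF1, a further interferon regulatory factor gene, was not called with 6 libraries (log2FC -0.10) and was lower without FT_1 (-0.35, edgeR adjusted p = 0.00385, and up to 0.989 over the alternatives).

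**Figure D4:**
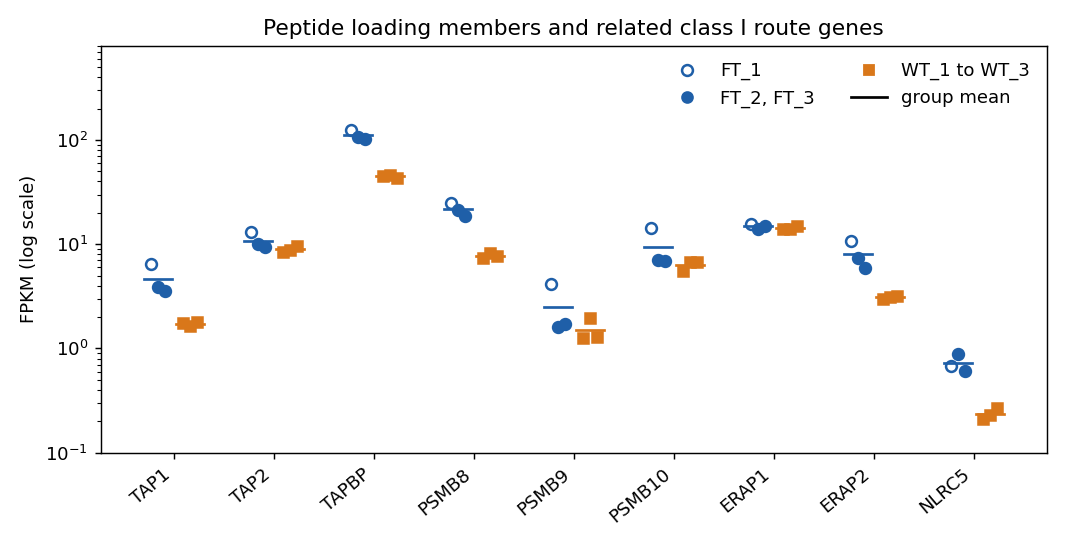
FPKM of the peptide loading members TAP1, TAP2 and TAPBP and of related genes of the class I route in each library, on a log axis, with lines at the group means. TAP1, TAPBP, PSMB8, ERAP2 and NLRC5 were called higher in FT cells, and PSMB9 and PSMB10 are high in FT_1 (open circles) and near the WT level in FT_2 and FT_3.

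Of the 6 class II members, 4 were at or near 0 in both groups. CIITA, BOLA-DRA, BOLA-DRB3, BOLA-DOA and BOLA-DQA were not analysed here. CD74, the invariant chain that escorts class II molecules, had 14, 6 and 0 counts in FT_1, FT_2 and FT_3 and none in WT libraries. The beta chain genes BLA-DQB, BOLA-DOB and BOLA-DYB each had a count in 1 library, of 6, 4 and 3. A count of 0 allows up to 3 counts, which is a CPM of 0.0430 to 0.0623 in these libraries, for counting error only. These 4 genes and TNF, the cytokine gene among the members with at most 6 counts, were therefore not tested, and none had an FPKM above 0.13. The macrophage gene CD163 was lower in FT cells, with an FPKM of 0.18, 0.00 and 0.03 against 3.14, 2.90 and 2.69 in WT cells (edgeR adjusted p = 0.0167). Of the leukocyte markers not named above, CSF1R overlapped between the groups and was not called (edgeR adjusted p = 0.577). AIF1, SPI1, ITGAM and LYZ had at most 17 counts in any library and were not tested with 6 libraries.

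BOLA-DMA and BOLA-DMB encode the DM molecule, which loads peptides on class II. BOLA-DMB (chromosome 23, 7246582 to 7253835) had an FPKM of 1.21, 1.83 and 1.51 in FT cells and of 3.50, 3.05 and 3.19 in WT cells. It was lower in each FT library, with a log2FC of -0.93 (standard error 0.22, edgeR adjusted p = 0.0188). The call was lost when FT_3 or any WT library was left out, with an adjusted p of up to 0.0793. BOLA-DMA (chromosome 23, 7263678 to 7269167) had 2.75, 1.78 and 1.37 in FT cells and 3.84, 3.52 and 3.88 in WT cells. It too was lower in each FT library, but its log2FC of -0.78 missed the threshold (standard error 0.29, edgeR adjusted p = 0.0764), which it passed in DESeq2, in limma and without FT_1 (-1.09, adjusted p = 9.87e-04), with an adjusted p of up to 0.186 over the alternatives.

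Chaperones fold the heavy chains in the endoplasmic reticulum or hold peptides in the cytosol. Of the 3 members of the endoplasmic reticulum, CALR was called lower with 6 libraries. In FPKM all 3 had each FT library below each WT library, as had 36.9% of all genes tested. CALR (chromosome 7, 12618113 to 12621944) encodes calreticulin, which holds class I for peptide loading. Its FPKM was 404.90, 549.09 and 531.51 in FT_1, FT_2 and FT_3, against 884.07, 951.47 and 831.30 in WT_1, WT_2 and WT_3. The log2FC was -0.68 (standard error 0.16, edgeR adjusted p = 0.0175), and the call was lost without WT_1 or WT_2 (adjusted p of up to 0.0707). The calnexin gene CANX and PDIA3, a disulfide isomerase of the loading complex, had smaller log2FC values of -0.23 and -0.27 that missed the threshold with 6 libraries (edgeR adjusted p = 0.0720 and 0.0556) and passed it in DESeq2, in limma, with library totals and without FT_1. Both missed it with the replicate block and with any other library left out (adjusted p of up to 0.210 and 0.175). HSPA5, the main chaperone of this compartment, does not carry the pathway key and was 357.02, 280.90 and 278.09 in FT cells against 556.46, 587.70 and 589.13 in WT cells (log2FC -0.76, standard error 0.12, edgeR adjusted p = 0.00530).

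The 7 cytosolic chaperones did not move one way. HSP90AA1 (chromosome 21, 66936747 to 66945064), the inducible HSP90 gene, had an FPKM of 149.56, 209.33 and 205.27 in FT cells and of 393.15, 438.00 and 374.61 in WT cells. Every FT library was lower, with a log2FC of -0.93 (standard error 0.17, edgeR adjusted p = 0.00865). HSPA4, of the HSP110 family, had 35.22, 43.45 and 42.86 in FT cells and 82.63, 87.39 and 72.33 in WT cells (log2FC -0.84, standard error 0.13, edgeR adjusted p = 0.00480). HSPA1A (chromosome 23, 27520317 to 27522790), the stress-inducible HSP70 gene, rose instead, from 49.72, 53.14 and 52.50 in WT cells to 127.29, 106.30 and 96.02 in FT cells. Its log2FC was 1.24 (standard error 0.11, edgeR adjusted p = 0.00115), and it was the 1 chaperone called higher with 6 libraries.

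HSPA8, the constitutive HSP70 gene, was the most abundant chaperone by its mean FPKM in FT cells, with 771.55, 732.64 and 729.48 in FT cells and 737.34, 830.31 and 725.47 in WT cells. The groups overlapped and HSPA8 was not called (log2FC 0.12, and -0.03 with library totals alone). In WT cells CALR and HSP90AB1 had higher means than HSPA8, 889 and 798 against 764. HSP90AB1 was lower in each FT library (log2FC -0.37, edgeR adjusted p = 0.0781) and was called in DESeq2, in the filtered limma fits, with library totals and without FT_1 (-0.50, adjusted p = 8.43e-05), with an adjusted p of up to 0.205 over the alternatives. HSPA2 and HSPA1L were not called with 6 libraries. HSPA2 stood at 6.25 in FT_1 and at 18.61 and 17.57 in the other FT libraries, against 14.15 to 15.23 in WT cells, and was called higher without FT_1 (log2FC 0.47, edgeR adjusted p = 4.92e-04, and up to 0.941 over the alternatives). HSPA1L was at an FPKM of 0.71 to 1.08 over the 6 libraries. HSF1, the heat shock transcription factor gene, was higher in FT cells by 0.95 on the log2 scale (standard error 0.08, edgeR adjusted p = 9.38e-04).

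**Figure D5:**
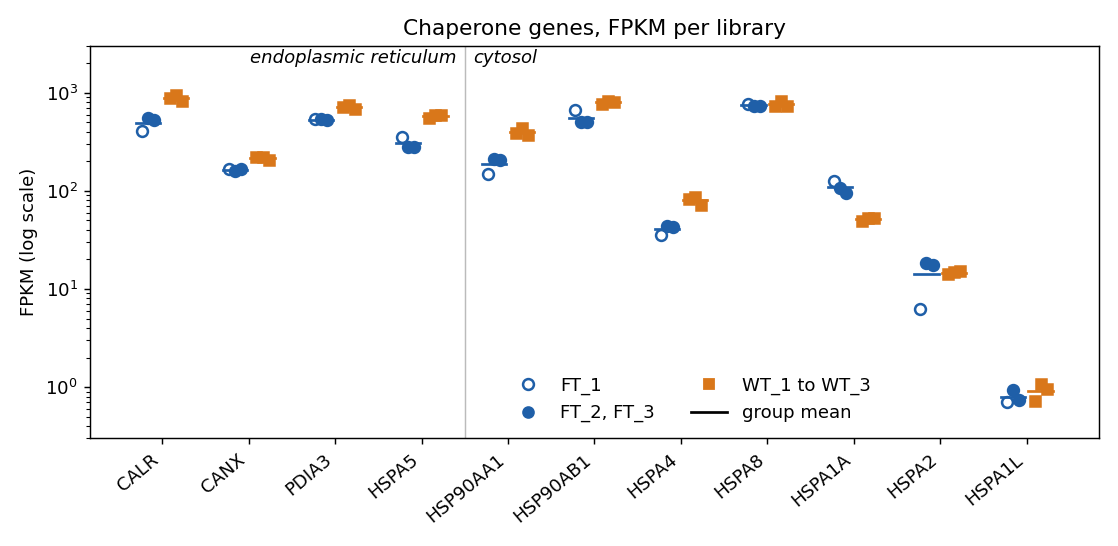
FPKM of the 10 chaperone members and of HSPA5, which lies outside the pathway key, in each library, on a log axis, with lines at the group means. CALR, HSP90AA1 and HSPA4 were called lower and HSPA1A higher in FT cells, and HSPA8 overlaps between the groups.

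Among the 6 proteases and reductases that cut and unfold proteins in lysosomes, 1 was called lower (16.7%) and 0 were called higher by edgeR, against 18.9% and 20.1% of all genes. At an unadjusted p under 0.05 and in DESeq2, 2 were lower and 1, IFI30, was higher. In limma and with library totals 2 were lower and 0 higher, and without FT_1 3 were lower and 2 higher. LGMN (chromosome 21, 57379063 to 57414855), the asparagine-specific protease legumain, had an FPKM of 64.30, 78.77 and 77.63 in FT cells and of 118.06, 108.53 and 122.92 in WT cells. Its log2FC was -0.50 (standard error 0.12, edgeR adjusted p = 0.0187), and the call was lost without WT_1 or WT_3 (adjusted p of up to 0.0729). CTSB, which encodes cathepsin B and had the highest mean FPKM of this class, had 168.30, 634.59 and 616.98 in FT_1, FT_2 and FT_3 against 546.63, 491.69 and 532.05 in WT cells. FT_1 was below and the other FT libraries above the WT libraries, so the log2FC was 0.02 with 6 libraries (-0.14 with library totals alone) and 0.43 without FT_1 (adjusted p = 3.02e-04, and up to 0.984 over the alternatives).

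CTSS, which encodes the cathepsin that cuts the invariant chain, was at 19.45 in FT_1, and at 69.89 and 68.76 in the other FT libraries against 73.19 to 81.63 in WT cells. IFI30, a thiol reductase, had a log2FC of 0.73 (edgeR adjusted p = 0.0621) and of 0.97 without FT_1, and CTSV of -0.01 and of -0.41, and both were called without FT_1. CTSL was lower in each FT library, with 0.88, 3.34 and 3.79 in FT_1, FT_2 and FT_3 against 7.53 to 8.96 in WT cells. Its log2FC of -1.46 missed the threshold (edgeR adjusted p = 0.0713), which CTSL passed in DESeq2, in limma, with library totals and without FT_1 (-1.04), and its adjusted p was up to 0.171 over the alternatives. SPPL2A, a related protease that removes the last stub of the invariant chain, was at an FPKM of 8.88, 8.33 and 8.59 in FT cells and 21.38, 19.26 and 20.52 in WT cells (log2FC -1.09, standard error 0.07, edgeR adjusted p = 6.71e-04).

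The 7 transcription factor members form the complexes that bind the promoters of class I and class II genes. These were RFX5, RFXANK, RFXAP, NFYA, NFYB, NFYC and CREB1. By edgeR 0 of them were called, against 20.1% higher and 18.9% lower over all genes, 2 had an unadjusted p under 0.05 (NFYA and RFXANK, both higher), and limma and DESeq2 called 0. Values of log2FC ranged from -0.32 for RFXAP to 0.50 for NFYC. RFXANK, with the highest mean FPKM of them over the 6 libraries, but below NFYB in the WT mean (15.5 against 17.0), had 19.21, 16.32 and 15.79 in FT cells and 14.36, 16.15 and 15.85 in WT cells, and the groups overlapped. Without FT_1, RFXAP was called lower (log2FC -0.46, edgeR adjusted p = 0.0241, and up to 0.453 over the alternatives). A p that misses the threshold does not show that FT and WT levels were equal.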

How the data were processed

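HISAT was the aligner named by the authors, and StringTie and edgeR gave the expression values. The submitters' processing notes name HISAT2 2.0, StringTie 1.3.0 and Bowtie 0.12.2, and the mouse build mm8 for these cattle libraries. The build of the cattle genome is not given in the sources used here, and coordinates are those of the authors' table. The table the authors deposited gave a raw count per gene and library, and an FPKM value scaled by gene length and library total. Replicates were separate fetuses.

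Here edgeR 4.0.16 (TMM, filterByExpr, quasi-likelihood test, two-sided) was run in R 4.3.3 on the counts of all genes, with no covariate. Alternatives were DESeq2 1.42.0 and, where FPKM averaged 0.5 or more, limma 3.58.1 with a trend on log2(FPKM + 1). In simulated counts of FT against WT, edgeR called 100.0% of the genes changed 2-fold (13371 genes tested; 3.85% of its calls were false) and limma 100.0% (12490 genes tested; 4.76% false). The simulated counts had the same spread in all genes, smaller than that between FT_1 and the other FT libraries. Only genes with higher counts were changed 2-fold. These shares therefore do not carry over to genes with few counts, or to genes on which FT_1 departed from the other FT libraries. In the data CTSL (log2FC -1.46) and VIM (-1.17) missed the threshold (edgeR adjusted p = 0.0713 and 0.0902). The members and lists were chosen with earlier results of these data known. Named genes were every tested member of class I, peptide loading and class II; of the other classes up to 6 called members by smallest p and the most abundant one; and of the related genes PSMB8, PSMB9, PSMB10, NLRC5 and the 6 other called genes with the smallest p. Further genes were named after their values were seen. A motif search of promoters was not run, since no sequences were used here.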

Additional observations from a re-analysis of the deposited data

How the results depend on the processing

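All 14 members called kept their direction under each alternative, and the 6 class I rises were kept in every alternative with 6 libraries except the unfiltered limma fit (5) and the threshold of the study's methods (unadjusted p under 0.05, absolute log2 fold change over 1), which called 4. The falls depended more on the setting. Members called lower numbered 10 in DESeq2, 10 in limma on log2(FPKM + 1) and on log2(FPKM + 0.1), 9 without a filter in limma, 9 with library totals, 3 with the replicate block and 1 at the study's threshold. In that order these were 23.8%, 27.0%, 27.0%, 21.4%, 24.3%, 8.11% and 2.70% of the members tested, against 16.8%, 29.2%, 28.8%, 20.5%, 25.2%, 12.9% and 8.96% of all genes tested. The 1 at the study's threshold was CTSL, and the 5 members called lower in the main fit all missed that threshold, since their log2 fold changes were smaller than 1 in size. Chaperones called lower numbered 6 in DESeq2, 6 in both filtered limma fits, 5 without a filter in limma, 6 with library totals and 0 at the study's threshold (unadjusted p under 0.05 alone: 6 in edgeR, with all 6 lower in DESeq2). Class II members called lower numbered 2 in DESeq2 and in the 3 limma fits, 0 with the block and 0 at the study's threshold (2 at an unadjusted p under 0.05 in edgeR). The causes were not tested.

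With 1 library left out, members called ranged from 8 to 14 higher and from 2 to 13 lower, class I members lower from 0 to 1, class II members lower from 0 to 2, and chaperones from 1 to 2 higher and from 2 to 6 lower. The upper end was reached without FT_1 in each case. Calls over all genes moved as well, from 11.0% to 30.6% higher and from 11.1% to 31.5% lower. Fewer libraries remained in each of these fits.

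No reversed value was called in either fit. The log2 fold changes of HSPA8, HSPA2, CTSB and NFYB were -0.03, -0.05, -0.14 and -0.13 with library totals, -0.04, -0.18, -0.37 and -0.12 in limma (also unfiltered), and -0.04, -0.21, -0.37 and -0.13 with a pseudocount of 0.1. With 1 library left out, they ranged from -0.57 to 0.12 for B2M, -0.24 to 0.43 for CTSB, -0.64 to 0.01 for CTSS, -0.41 to 0.16 for CTSV, -0.20 to 0.07 for HSPA1L, -0.14 to 0.47 for HSPA2 and -0.07 to 0.09 for NFYB.

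The labels number the replicates alike in both groups, but the samples are different fetuses. The deviations of same-numbered libraries had correlations of -0.00103, -0.0198 and 0.0184, so no pairing was seen. A weak link between same-numbered libraries could be missed, since FT_1 stood apart among the FT libraries. The replicate block left 9 members higher and 3 lower, BOLA-DMB and LGMN losing the call, and gave -0.04 for HSPA2 and -0.19 for CTSB. With 3 libraries a group, 1 of which stood apart, changes in genes that vary between libraries may have been missed.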

Other observations

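Further class I related genes were looked at, in part after their values were seen. MIC1, a stress-induced class I related gene, had an FPKM of 2.64, 4.63 and 4.84 in FT cells and of 0.72, 0.97 and 0.44 in WT cells, so the groups were apart. The row ENSBTAG00000053433, which lies within the span of the heavy chain row ENSBTAG00000007075 on the opposite strand, had 2.28, 1.71 and 1.49 in FT cells and 0.78, 0.95 and 0.76 in WT cells (a log2 difference of 1.29, standard error 0.25, edgeR adjusted p = 0.0100, and up to 0.0516 with 1 library left out). Both overlap heavy chain rows, and their reads are uncertain for the same reason. ULBP21 had 0.83, 2.72 and 2.98 in FT cells and 2.44, 5.41 and 2.40 in WT cells, and the groups overlapped (log2 fold change -0.48, edgeR adjusted p = 0.545).

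Of the listed class I like genes, MR1, which presents vitamin metabolites, and HFE, a regulator of iron uptake, were called higher by small amounts (log2 fold changes 0.61 and 0.51, edgeR adjusted p = 0.0373 and 0.0235), and both calls were lost in limma, with library totals, with the replicate block and in several fits with 1 library left out (adjusted p of up to 0.133 and 0.128). FCGRT, the neonatal Fc receptor gene, was not called (0.15, and -0.00 with library totals). CD1D was not called with 6 libraries (0.41, edgeR adjusted p = 0.717) and was higher without FT_1 (0.93, edgeR adjusted p = 4.62e-04, and up to 0.982 over the alternatives). Its log2 fold change turned to -0.02 in limma and to -0.11 with the replicate block, and was as low as -0.14 with 1 library left out. Genes that supply or trim peptides in the cytosol did not move one way. Log2 fold changes were -0.77 for the proteasome activator PSME2, -0.44 for NRDC and -0.29 for TPP2 (edgeR adjusted p = 0.00435, 0.00793 and 0.0196), and TPP2 lost the call with the replicate block and in 4 of the fits with 1 library left out (adjusted p of up to 0.0767). PSMB8 was called higher (1.64), and PSME1 and THOP1 were not called (-0.13 and 0.17, edgeR adjusted p = 0.275 and 0.445). PSME1 was lower in limma and with library totals (-0.28 in both, adjusted p = 0.0393 and 0.0459), and THOP1 was -0.01 in limma and -0.02 without FT_1. UGGT1, the glucosyltransferase that returns misfolded glycoproteins to calreticulin, was also lower (-0.61, edgeR adjusted p = 0.00475). TAPBPL, a relative of tapasin, was higher (0.52, edgeR adjusted p = 0.00714).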
